A study of Mus musculus with 4 samples.

Results

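The bile acid synthesis enzymes were 8 genes chosen by name, Cyp7a1, Cyp7b1, Cyp8b1, Cyp27a1, Cyp39a1, Hsd3b7, Amacr and Baat, of 13903 genes listed in the table. Their transcript levels were read in 4 libraries of mouse liver mRNA. All mice were OGT-Floxed on the C57BL/6J background and had been given the CDE diet, a choline-deficient, ethionine-supplemented diet that injures the liver. AAV8-TBG-CRE was given to the mice labelled OGT-KO, in which Cre is meant to remove Ogt, the enzyme that attaches O-GlcNAc to proteins, and AAV8-TBG-eGFP to the control mice. The TBG promoter directs expression to hepatocytes, so other liver cells are expected to keep the floxed gene. The livers came either straight after the diet (no recovery) or after a 7 day recovery from it. Each of the 4 conditions was 1 library made from equal amounts of RNA of 3 mice, and the labels give neither sex nor age. With 1 library a condition there was no replicate error and no test of a difference between conditions. A gene was called higher or lower at a 2-fold difference, taken as a difference of 1 or more in log2(CPM + 1), where CPM is the read count of a gene per 1000000 reads on listed genes. Calls were made among the 8963 genes averaging 10 CPM or more, which included all 8 enzymes. Intervals given with a level or ratio are 95% exact intervals for counting error and do not cover differences between mice.

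Bile acids are made from cholesterol in hepatocytes. In the classic pathway Cyp7a1 adds the 7α-hydroxyl group first, whereas in the alternative pathway Cyp27a1 first oxidizes the side chain and Cyp7b1 then hydroxylates the resulting oxysterol. The routes share Hsd3b7 for modification of the ring and Amacr for the peroxisomal shortening of the side chain, Cyp8b1 adds the 12α-hydroxyl group that defines cholic acid, and Baat joins the finished bile acid to taurine or glycine.

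The libraries held from 19972699 to 22866431 reads. Ogt stood at 64.7 CPM in the control library and 55.3 in the OGT-KO-labelled library with no recovery, and at 55.7 and 77.7 after 7 days. At this scaling Ogt went against the label after 7 days, at 0.47 on the log2 scale, which became -0.20 by median ratio and 0.005 by upper quartile. With scaling to hepatocyte markers it went against the label at both times, at 0.14 and 0.72. Other liver cells, expected to keep the floxed gene, had higher marker sums under the OGT-KO label, as given below. Their part in these Ogt values was not tested. Each direction below is therefore between labels. Between the labels the median of all compared genes stood at 0.51 (log2 scale) with no recovery and at 0.48 after 7 days, an upward shift, while the called enzymes were lower. The summed CPM of 10 hepatocyte markers was 96780 and 105349 in the control libraries and 74845 and 88450 in those labelled OGT-KO, and none of the 10 was at 0. In whole liver, fewer hepatocytes and less RNA per hepatocyte cannot be told apart.

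Of the 8 enzymes, 4 were called lower under the OGT-KO label, with no recovery as well as after 7 days (Cyp7b1, Cyp8b1, Cyp27a1 and Baat) and 0 were higher. Over all compared genes 5.69% were lower and 24.4% higher with no recovery, and 4.27% were lower and 22.9% higher after 7 days. The median difference of the 8 enzymes was -1.43 with no recovery and -1.35 after 7 days. Their summed CPM was 1627 in the control library and 343 in the OGT-KO-labelled library with no recovery, and 1791 and 513 after 7 days. Cyp7a1, the first enzyme of the classic pathway, differed far less than Cyp27a1 and Cyp7b1 of the alternative pathway and the 12α-hydroxylase Cyp8b1. Cyp39a1, which acts on another oxysterol, went the other way, at 0.02 and 0.60 on the log2 scale. Cyp7a1 stood at -0.44 and -0.34.

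**Figure D1:**
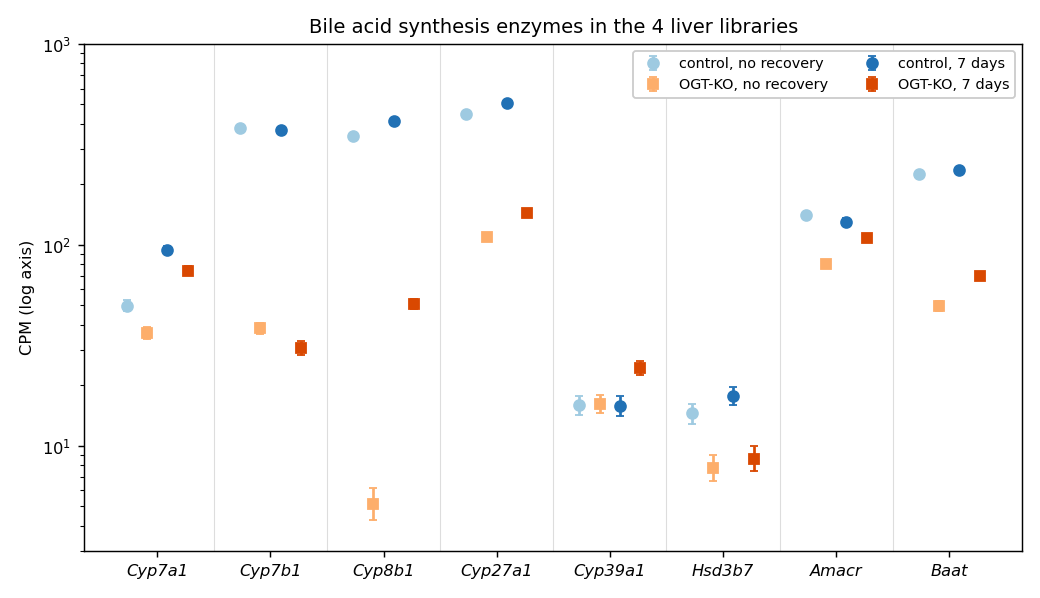
Level of each enzyme in CPM (log axis) in the 4 libraries, 1 point a library, with 95% exact counting intervals. Cyp8b1 spans the widest range, from 5.16 to 412 CPM, and Cyp39a1 the narrowest by ratio, from 15.8 to 24.5 CPM.

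Cyp7a1, the rate-limiting enzyme of the classic pathway, had 49.8 CPM (46.9 to 52.9) in the control library and 36.5 (34.1 to 39.1) in the OGT-KO-labelled library with no recovery. After 7 days it had 94.5 CPM (90.3 to 98.9) and 74.5 (71.0 to 78.1). It was therefore lower under the OGT-KO label at both times, by 1.36-fold (1.24 to 1.50) and 1.27-fold (1.19 to 1.36), neither of which reached the 2-fold call. Relative to the median gene it was lower by more, at -0.95 and -0.82 on the log2 scale.

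Cyp8b1, the sterol 12α-hydroxylase, had 348 CPM (340 to 356) in the control library with no recovery and 5.16 (4.27 to 6.18) under the OGT-KO label, which were 7399 and 118 reads. After 7 days it had 412 CPM (403 to 421) and 51.0 (48.1 to 54.1), or 8230 and 1152 reads. Both libraries labelled OGT-KO thus lay far below both control libraries. With no recovery the fold difference was 67.4 (56.2 to 81.6). After 7 days it was 8.07 (7.59 to 8.59). Of the 8963 compared genes, 16 had a more negative difference with no recovery and 39 after 7 days.

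The promoters of Cyp8b1 and Cyp27a1 are shown because both genes were called lower at both times and had a sequence in the reference used here. Each is the 250 bases before the start of the gene, on the gene's strand, from RefSeq on GRCm38.p6. Cyp8b1 lies at chr9:121916306-121916555 on the minus strand and Cyp27a1 at chr1:74713285-74713534 on the plus strand. The capitals mark CAAAGTCCA, a form of the site bound by the hepatocyte nuclear receptor Hnf4a.
Cyp8b1: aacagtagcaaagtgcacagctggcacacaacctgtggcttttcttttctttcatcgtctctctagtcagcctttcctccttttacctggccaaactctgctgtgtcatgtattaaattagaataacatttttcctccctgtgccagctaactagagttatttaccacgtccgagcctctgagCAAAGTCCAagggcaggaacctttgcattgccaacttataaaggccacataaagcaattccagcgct
Cyp27a1: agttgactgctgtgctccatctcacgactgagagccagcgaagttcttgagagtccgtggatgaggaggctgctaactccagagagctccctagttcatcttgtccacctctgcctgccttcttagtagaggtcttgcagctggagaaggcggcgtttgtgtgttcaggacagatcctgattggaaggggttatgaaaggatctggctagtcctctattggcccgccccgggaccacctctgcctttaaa
The letters were searched on both strands, together with AGGTCA, CAAGGTCA (which contains AGGTCA) and the palindromic Hnf1 motif. The Cyp8b1 promoter held CAAAGTCCA on the gene's strand from 67 to 59 bases before the start and none of the others. Of 32851 promoters of the same length 0.384% held CAAAGTCCA, 14% held AGGTCA, 1.33% held CAAGGTCA and 0.00913% held the Hnf1 motif. No match to any of the 4 was in the windows of Cyp27a1 or Hsd3b7, the other member with a sequence. Of the 8 enzymes 3 had one. A match is a description of the letters, and binding was not measured.

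Cyp27a1, the mitochondrial sterol 27-hydroxylase that opens the alternative pathway, had the highest CPM of the 8 enzymes in every library. Its levels were 451 CPM (442 to 460.0) and 511 (501.2 to 521) in the control libraries with no recovery and after 7 days. In the libraries labelled OGT-KO they were 109 (105 to 114) and 145 (139.8 to 150). The control level was the higher by 4.13-fold (3.95 to 4.31) and then by 3.53-fold (3.40 to 3.68).

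Cyp7b1, the oxysterol 7α-hydroxylase downstream of Cyp27a1, had 381 CPM (373 to 389.9) in the control library with no recovery and 372 (364 to 381) after 7 days. The libraries labelled OGT-KO had 38.4 CPM (35.9 to 41.1) and 30.7 (28.5 to 33.1). It was 9.92-fold (9.25 to 10.7) lower before and 12.1-fold (11.2 to 13.1) lower after 7 days, and at the later time 28 of the 8963 genes had a more negative difference. In mouse liver Cyp7b1 is known to be expressed more in males than in females. A list of 8 other genes with male-biased expression in mouse liver moved with it, 7 of 8 being called lower at each time and 6 of them at both, with medians of -3.83 and -2.93. Over all compared genes 5.69% and 4.27% were lower. The list includes members of the Cyp4a family, whose near-identical copies could split reads, so its counts are not of fully separate genes. For these 8 male-biased genes the sums follow. Their summed CPM was 7901 and 6012 in the control libraries and 3020 and 2351 in those labelled OGT-KO, none was at 0, and the part of the mice's sex in the Cyp7b1 difference was not tested.

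Cyp39a1 hydroxylates another oxysterol, 24-hydroxycholesterol, at the same position as Cyp7b1. It had 15.9 CPM (14.3 to 17.7) in the control library and 16.2 (14.6 to 17.9) in the OGT-KO-labelled library with no recovery. After 7 days the levels were 15.8 (14.1 to 17.6) and 24.5 (22.5 to 26.6). The ratio of the OGT-KO label to control was 1.02 (0.876 to 1.18) and then 1.55 (1.35 to 1.79). With no recovery it differed by less than the counting error, and after 7 days it was the one enzyme of the 8 with a higher level under the OGT-KO label, short of the call. This direction rests on the scaling: by median ratio the difference was -0.65 and -0.05, and by upper quartile -0.42 and 0.15.

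Hsd3b7, the steroid dehydrogenase that acts on the 7α-hydroxylated sterols of both routes, had 14.5 CPM (12.9 to 16.2) and 17.7 (15.9 to 19.6) in the control libraries. The libraries labelled OGT-KO had 7.78 (6.68 to 9.02) and 8.64 (7.47 to 9.94). It was lower at both times by 1.86-fold (1.54 to 2.25) and 2.05-fold (1.71 to 2.45). On the log2(CPM + 1) scale, which understates differences of low genes, this was -0.82 and -0.95 and did not reach the call. With a pseudocount of 0.1 in place of 1 it was called after 7 days, at -1.02.

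Amacr, the racemase that prepares the side chain for peroxisomal oxidation, had 140.2 CPM (135 to 145) in the control library with no recovery and 80.0 (76.4 to 83.8) under the OGT-KO label. After 7 days it had 130.3 CPM (125 to 135) and 109 (104 to 113). The difference shrank from 1.75-fold (1.65 to 1.86) to 1.20-fold (1.14 to 1.27), and neither was called.

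Baat, which conjugates bile acids, had 226 CPM (220.1 to 233) and 237 (230.0 to 244) in the control libraries and 49.8 (46.9 to 52.7) and 69.9 (66.5 to 73.5) in those labelled OGT-KO. It was 4.55-fold (4.26 to 4.86) lower before and 3.39-fold (3.20 to 3.59) lower after 7 days. Baat thus differed more between the labels than Amacr, and within each library the ratio of Baat to Amacr was 1.62 and 1.82 under the control label against 0.622 and 0.644 under the OGT-KO label.

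**Figure D2:**
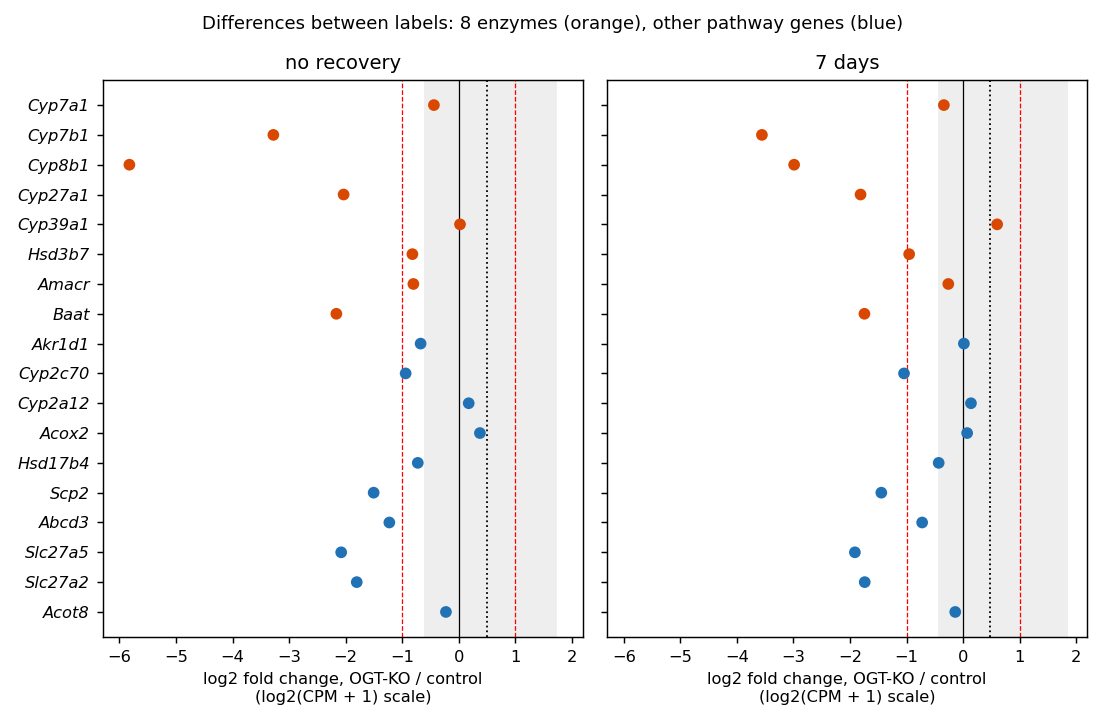
Difference between the libraries labelled OGT-KO and control in log2(CPM + 1) for the 8 enzymes (orange) and 10 other pathway genes (blue), with dashed red lines at the 2-fold call, a dotted line at the median of all compared genes and a gray band from their 10th to 90th percentile. Cyp7b1, Cyp8b1, Cyp27a1 and Baat lie below -1 at both times, and Cyp39a1 lies at 0.02 and 0.60.

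Over recovery, 0 of the 8 enzymes were called in either direction in the control libraries, where 0.245% of all compared genes were higher and 0.96% lower after 7 days. Under the OGT-KO label 2 of 8 were higher, Cyp7a1 and Cyp8b1, and 0 lower, where 1.04% of all genes were higher and 0.435% lower. The median change of the enzymes was 0.12 for control and 0.46 for the OGT-KO label, against -0.05 and -0.03 over all genes. With scaling to hepatocyte markers, described with those markers, it was 0.0002 and 0.22, against -0.17 and -0.26 over all genes.

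Cyp8b1 was 9.89-fold (8.18 to 12.1) higher after 7 days than with no recovery in the libraries labelled OGT-KO. In the control libraries the ratio was 1.18 (1.15 to 1.22). The difference under the OGT-KO label, 3.08 on the log2 scale, was the largest increase among the 8963 genes, yet the level reached after 7 days remained below both control levels. The change under the OGT-KO label exceeded that under control by 2.84, and 2 genes exceeded this, Cyp4a14 at 4.22 and Cyp4a10 at 3.16. Part of both came from a fall in the control libraries, where their changes were -1.90 and -1.55. Under the OGT-KO label Cyp4a14 changed by 2.32 and Cyp4a10 by 1.61. These fatty acid hydroxylases were named after their values were seen, and they belong to a family of near-identical copies whose reads could be split between members.

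Cyp7a1 was higher after recovery under both labels, by 1.90-fold (1.76 to 2.05) in the control libraries and 2.04-fold (1.88 to 2.22) in those labelled OGT-KO. On the log2 scale these were 0.91 and 1.01, so that the call was met under the OGT-KO label only, although the changes differed by 0.10 and this difference was not tested. The call was lost with a pseudocount of 10, at 0.86, and with scaling to hepatocyte markers, at 0.77. Of the 8963 genes, 27 had a larger increase in the control libraries and 90 in those labelled OGT-KO.

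The other enzymes moved less over recovery. Under the OGT-KO label the ratio of 7 days to no recovery was 1.51 (1.32 to 1.73) for Cyp39a1, 1.41 (1.30 to 1.52) for Baat and 1.36 (1.28 to 1.44) for Amacr. In the control libraries the same ratios were 0.992 (0.848 to 1.16), 1.05 (1.004 to 1.09) and 0.930 (0.882 to 0.980). Cyp7b1 was the one enzyme of the 8 that was lower after 7 days under the OGT-KO label, at a ratio of 0.799 (0.722 to 0.883) against 0.976 (0.946 to 1.01) for control. With scaling to hepatocyte markers Hsd3b7 was also lower there, at -0.08 on the log2 scale. Cyp27a1 was at 1.32 and 1.13, and Hsd3b7 at 1.11 (0.901 to 1.37) and 1.22 (1.04 to 1.43).

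**Figure D3:**
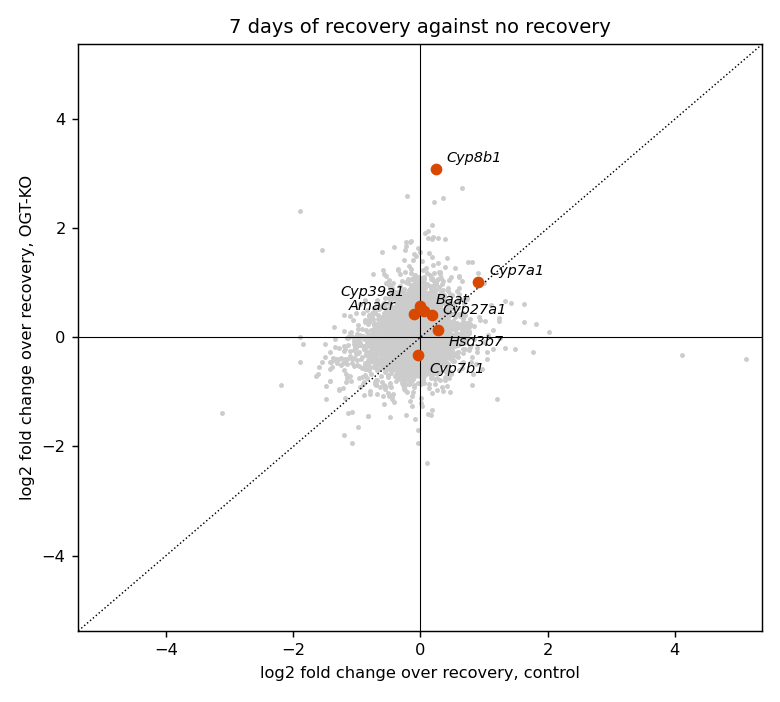
Change from no recovery to 7 days in log2(CPM + 1) for each enzyme, in the control libraries (horizontal axis) and in the libraries labelled OGT-KO (vertical axis), with all compared genes in gray and a dotted line where both changes are equal. Cyp8b1 stands apart at 0.24 and 3.08, Cyp7a1 lies near the diagonal at 0.91 and 1.01, and Cyp7b1 lies at -0.03 and -0.31.

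Ratios of 2 enzymes within a library do not depend on its scaling. The pairs were chosen with earlier results known, and every numerator is an enzyme called lower at both times. The direction of these ratios therefore restates the differences of single genes. Cyp8b1 to Cyp7a1, the 12α-hydroxylase set against the first enzyme of its pathway, was 6.99 and 4.36 in the control libraries with no recovery and after 7 days. Under the OGT-KO label it was 0.141 (0.116 to 0.172) and 0.685 (0.635 to 0.739). Cyp8b1 reads were thus more numerous than Cyp7a1 reads in both control libraries and fewer in both others. Cyp7b1 to Cyp7a1, which sets the 7α-hydroxylases of the alternative and classic pathways side by side, was 7.66 and 3.94 under the control label and 1.05 (0.956 to 1.16) and 0.412 (0.377 to 0.451) under the OGT-KO label. Within the alternative pathway Cyp7b1 to Cyp27a1 was 0.846 and 0.729 under the control label and 0.352 and 0.212 under the OGT-KO label. Between the oxysterol hydroxylases Cyp7b1 to Cyp39a1 went from 24.0 and 23.6 to 2.38 and 1.26.

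**Figure D4:**
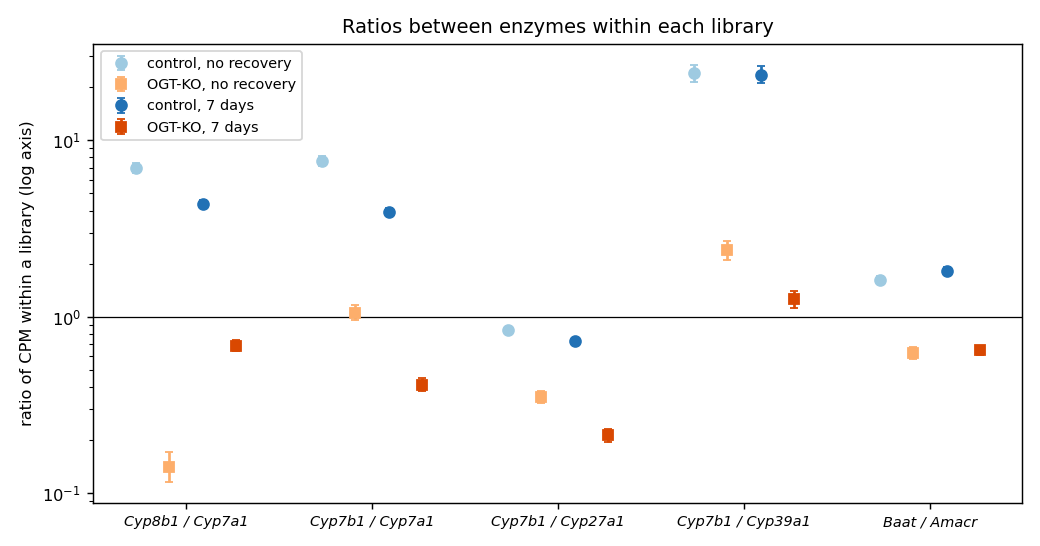
Ratio of the CPM of 2 enzymes within each of the 4 libraries (log axis), with 95% exact counting intervals. Each of the 5 ratios is lower in both libraries labelled OGT-KO than in both control libraries. Every numerator is an enzyme called lower at both times, so this direction restates the differences of single genes.

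Levels were compared between enzymes per kilobase of exon. In both control libraries the order from highest to lowest was Cyp27a1, Cyp8b1, Cyp7b1, Baat, Amacr, Cyp7a1, Hsd3b7 and Cyp39a1. In the first of these libraries, with no recovery, the levels were 238, 178, 176, 117, 54.4, 11.9, 6.98 and 5.21 CPM per kilobase, and the neighbors Cyp8b1 and Cyp7b1 were too close to be ordered by counting error. Under the OGT-KO label with no recovery Cyp27a1 stayed first at 57.7, Amacr at 31.1 and Baat at 25.6 followed, and Cyp8b1 was last at 2.65. After 7 days under the OGT-KO label Cyp8b1 was the fourth of 8 at 26.2, above Cyp7a1 at 17.9 and Cyp7b1 at 14.2, and Hsd3b7 was last at 4.16. Lengths came from GENCODE M21, and the order was the same with the length of the principal transcript.

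The wider pathway was described by 12 genes of bile acid synthesis, side-chain oxidation and activation, of which 10 were compared. With no recovery 4 of the 10 were lower and 0 higher, with a median of -0.83, and after 7 days 4 were lower and 0 higher, with a median of -0.58. Over all compared genes 5.69% were lower and 24.4% higher with no recovery, and 4.27% and 22.9% after 7 days, with medians of 0.51 and 0.48. Slc27a5, the ligase that activates bile acids for Baat, had 848 CPM (control) and 200.1 (OGT-KO label) with no recovery, then 898 and 238 after 7 days. Slc27a2, a very long chain acyl-CoA synthetase, had 1232 and 352 and then 1372 and 410.0. Scp2, whose longer product is the peroxisomal thiolase of the side chain, had 3665 and 1292 and then 3560 and 1306. These 3 were called lower at both times. At the deposited scaling the peroxisomal transporter Abcd3 was called at the first time alone, at -1.23 and then -0.72. Cyp2c70, the mouse enzyme of muricholic acid synthesis, was called there at the later time alone, at -0.94 and then -1.04.

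The remaining genes of that list were not called between the labels at the deposited scaling. Akr1d1, the steroid 5β-reductase that follows Hsd3b7, had 89.6 and 55.8 CPM with no recovery and 99.3 and 100.3 after 7 days. Hsd17b4, the bifunctional enzyme of the side chain, had 439 and 265 and then 372 and 276. It passed the 2-fold call with median-ratio scaling, at -1.44 and -1.12. By upper quartile it did so with no recovery only, at -1.19 and then -0.91. Acox2, the oxidase that acts after Amacr, had 227 and 294 and then 223 and 235, and Cyp2a12, a bile acid 7α-hydroxylase, had 606 and 686 and then 553 and 609. The direction of Acox2 and Cyp2a12 turned with median-ratio scaling, to -0.34 and -0.61 for Acox2 and -0.54 and -0.55 for Cyp2a12. Acot8, a peroxisomal thioesterase, had 17.5 and 14.8 and then 17.2 and 15.6. Cyp46a1 and Ch25h, oxysterol-forming enzymes, were below the filter. Ch25h had 3 and 45 reads with no recovery, a ratio of 13.9 (4.48 to 70.1), and 1 and 22 reads after 7 days, a ratio of 19.5 (3.15 to 804). None of the 10 compared genes was called over recovery under either label. Of 15 genes of peroxisome assembly, 14 were compared, 1 was lower with no recovery and 0 after 7 days, with medians of -0.34 and -0.24. Over all compared genes 5.69% and 4.27% were lower, so these counts are near that share, and the medians were 0.51 and 0.48.

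Of 23 listed regulators 22 were in the table and 20 were compared. With no recovery 6 were lower and 0 higher under the OGT-KO label, with a median of -0.36, and after 7 days 2 were lower and 0 higher, with a median of -0.52. The shares over all compared genes were 5.69% lower and 24.4% higher with no recovery, and 4.27% and 22.9% after 7 days, with medians of 0.51 and 0.48. Hnf4a, the nuclear receptor named above, had 851 and 335 CPM with no recovery and 864 and 458 after 7 days. It was called at the first time, at -1.34, and not at the later one, at -0.91. The regulator calls given here and below are at the deposited scaling and rest on it. After 7 days the median of all compared genes moved from 0.48 to 0.02 by upper quartile and -0.18 by median ratio. A regulator difference short of the call, as for Hnf4a after 7 days, can therefore pass it under those scalings. Fgfr4, the hepatocyte receptor through which the intestinal hormone Fgf15 represses Cyp7a1, had 63.4 and 17.4 and then 61.7 and 38.9, differences of -1.81 and -0.65. Under the OGT-KO label it was 2.24-fold (1.98 to 2.52) higher after recovery, the one regulator called over recovery there, where 1.04% of all compared genes were higher. Klb, its coreceptor, had 20.2 and 22.5 and then 20.5 and 21.2.

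Nr1h4, the bile acid receptor FXR, had 89.2 and 70.8 CPM with no recovery under the control and OGT-KO labels and 113 and 70.9 after 7 days. It was not called at the deposited scaling. Nr0b2, the corepressor that FXR induces, had 34.3 and 10.7 and then 26.9 and 15.9, differences of -1.60 and -0.72. The first of these was called at that scaling. Nr5a2, the receptor needed for full Cyp8b1 expression, had 59.6 and 38.1 and then 52.2 and 52.8. Onecut1, a hepatocyte transcription factor, was called at both times, with 40.9 and 11.2 and then 50.4 and 16.0.

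By the Euclidean distance between their 4 log2 levels after each gene's mean was removed, the closest of 3220 genes averaging 50 CPM or more were Sult1d1, Papss2 and Orm2 for Cyp7a1, at 0.34, 0.49 and 0.53. For Cyp7b1 they were Ugt2b1 at 0.35, Thrsp at 0.40 and Elovl3 at 0.59, and Elovl3 is also on the male-biased list. Cyp8b1 had no gene as near, the first being Ugt3a2 at 0.99, Pigr at 1.21 and Klkb1 at 1.22. Ugt3a2 had 350 and 299 CPM in the control libraries and 7.57 and 28.0 in those labelled OGT-KO. These rest on 4 libraries each.

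Markers of other liver cells moved with the label. The 6 cholangiocyte markers summed to 53.9 and 69.9 CPM in the control libraries and 1157 and 1469 in those labelled OGT-KO. For 6 stellate cell and fibroblast markers the sums were 176 and 126 against 2634 and 3195, for 6 macrophage markers 272 and 99.9 against 1055 and 791, and for 6 endothelial markers 176 and 125 against 317 and 231. The 3 lymphocyte markers in the table summed to 1.65 and 1.10 against 4.81 and 2.88, and the 3 neutrophil markers to 2.40 and 1.001 against 14.0 and 23.4. None of these markers was at 0 in a library, and their part in the differences of the enzymes was not tested. The scaling that follows is no such test, since the hepatocyte markers it rests on did not move together. Of the 10 hepatocyte markers 2 were lower with no recovery and 3 after 7 days, against 5.69% and 4.27% of all compared genes. Their medians were -0.48 and -0.12, with ranges from -1.60 to 0.14 and from -1.97 to 0.46, so the markers did not move as 1. With no recovery Alb, the highest, gave 47845 of the summed 96780 CPM in the control library. Under the OGT-KO label it gave 41362 of 74845, so scaling to the sum weighs Alb most. When the libraries were scaled to the summed hepatocyte markers, a choice made after seeing the data, Cyp7b1 stood at -2.91 and -3.31, Cyp8b1 at -5.50 and -2.74, Cyp27a1 at -1.67 and -1.56 and Baat at -1.80 and -1.49. The same 4 enzymes were called at both times, while Cyp7a1 stood at -0.08 and -0.09.

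**Figure D5:**
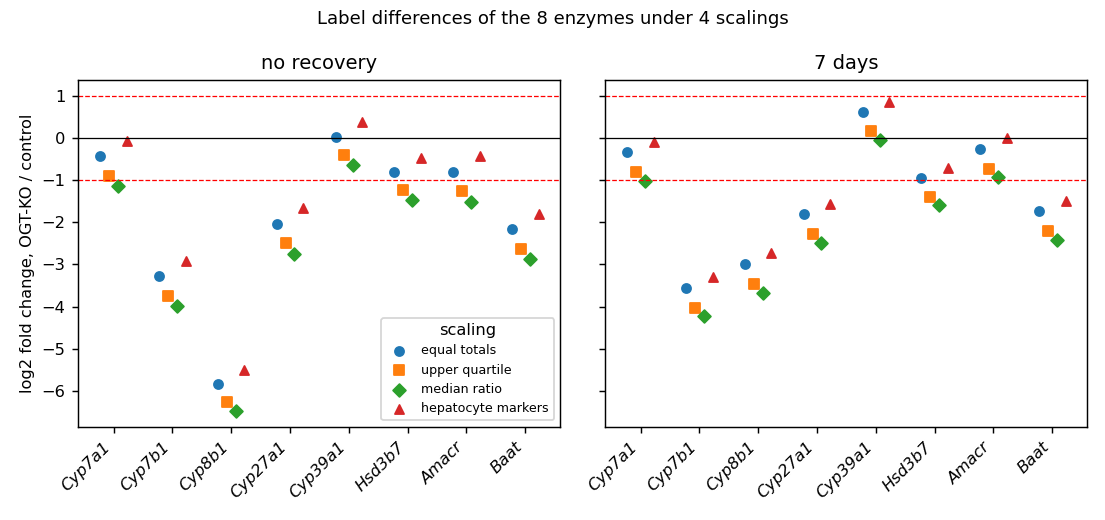
Difference between the libraries labelled OGT-KO and control in log2(CPM + 1) for each enzyme under 4 scalings, with no recovery and after 7 days, where equal totals is the deposited CPM and dashed lines mark the 2-fold call. Cyp7b1, Cyp8b1, Cyp27a1 and Baat lie below -1 under every scaling, while Cyp39a1 crosses 0.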

How the data were processed

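Total RNA was extracted with TRIzol and mRNA libraries were made with the Tecan universal plus mRNA-seq kit. The submitters' processing notes list STAR, DESeq2 and the build GRCm39, without versions. The table carries the name of DESeq2-normalized values, but the deposited values are CPM: each column sums to 1000000, and whole reads were recovered from the steps of all 4 columns for 100% of values within 0.01 of a whole number. CPM removes the library total and leaves each gene's share dependent on what other genes take up. Group labels came from the genotype, virus and time of each sample, and 1 library from pooled RNA stood for each condition, so no p-value was computed between conditions.

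Differences were taken in log2(CPM + 1) among genes averaging 10 CPM or more across all 4 libraries and called at 2-fold. Levels had exact Clopper-Pearson intervals from the recovered reads, ratios had exact conditional binomial intervals, and reads are not independent molecules, so both cover counting error only. At 3 reads the level was 0.131 to 0.150 CPM. Per-length levels used GENCODE M21 exons and promoters came from RefSeq GRCm38.p6, both matched by identifier or symbol and not by coordinates of the table. Alternatives were other pseudocounts, filters, a 4-fold call, an exact binomial test between libraries, and scaling by median ratio, upper quartile or summed hepatocyte markers. The calling step was tested on simulated data.

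The enzymes, the gene lists and the tests were chosen with earlier results of these data known. Named genes were the 8 enzymes, the wider pathway list, Nr1h4, Nr0b2, Nr5a2, Hnf4a, Fgfr4 and Klb, other regulators called at both times, the 3 genes most like Cyp7a1, Cyp7b1 and Cyp8b1, and Ogt. Alb was named as the highest hepatocyte marker. Cyp4a14 and Cyp4a10 fall outside this rule and were chosen after their values were seen. Analyses were run in Python 3.11.15 with numpy 2.4.6, pandas 2.3.3 and scipy 1.17.1, and figures with matplotlib 3.10.9.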

Additional observations from a re-analysis of the deposited data

Results flagged for a closer look

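Each value here is a change or difference in log2(CPM + 1) that had opposite signs under the 2 labels or at the 2 times, with 1 library on each side, and these differences were not tested. All are at the deposited scaling. Over recovery Amacr stood at -0.10 in the control libraries and 0.44 in those labelled OGT-KO. Hsd17b4 stood at -0.24 and 0.054, of which the second turned to -0.19 with scaling to hepatocyte markers. Abcd3 stood at -0.17 and 0.34. Of the named regulators, Nr0b2 stood at -0.34 and 0.53 and Nr5a2 at -0.19 and 0.46. The list is not complete. Fgfr4 at -0.04 and 1.12 and Cyp39a1 at -0.01 and 0.57 also had opposite signs, each with a control interval that included a ratio of 1. Some regulators not named here had opposite signs too. Ogt stood at -0.21 and 0.48 over recovery, and its difference between the labels was -0.22 with no recovery and 0.47 after 7 days. The signs between the labels depended on the scaling. These label differences of Ogt were -0.93 and -0.20 by median ratio, -0.69 and 0.005 by upper quartile and 0.14 and 0.72 with scaling to hepatocyte markers. Over recovery the changes of Ogt kept opposite signs. They were -0.17 and 0.55 by median ratio, -0.17 and 0.52 by upper quartile and -0.33 and 0.25 with scaling to hepatocyte markers.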

How the results depend on the processing

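No paired analysis was possible because each condition had 1 library, and for the same reason no library could be left out. Of 100 values for the counts and medians of the 8 enzymes under an alternative, 95 kept within 1.5 times the count or their direction and 5 did not. Many of the 95 could hardly move: counts of 0 stayed 0 throughout, and all 8 enzymes passed the filter already. A rise from 4 to 6 was scored as kept. Of 940 values for single genes and ratios, 798 kept their direction and call. Another 74 changed direction without a call, 54 gained the call and 14 lost it. With median-ratio scaling 7 enzymes were lower with no recovery rather than 4, adding Cyp7a1, Hsd3b7 and Amacr, and 6 after 7 days, adding Cyp7a1 and Hsd3b7. With upper-quartile scaling 6 and 5 were lower. Among genes averaging 50 CPM or more, which leaves out Cyp39a1 and Hsd3b7, the median of the enzymes was -2.10 and -1.78. At a 4-fold call 2 were lower after 7 days, Cyp7b1 and Cyp8b1. The 2 enzymes higher over recovery under the OGT-KO label became 1, Cyp8b1, with a pseudocount of 10, at the 4-fold call and with scaling to hepatocyte markers, the last added after seeing the data. No result reversed with a call on both sides. The background shifted more: calls between the labels were higher for 81.1% and 84.3% of called genes as deposited, 55.8% and 62.6% with upper-quartile scaling, 40.4% and 49.6% with median-ratio scaling and 91.5% and 92.1% with hepatocyte markers. The median of all genes was then 0.05 and 0.02, -0.19 and -0.18, and 0.87 and 0.72. Genes called lower with no recovery were 510 as deposited, 966, 1381 and 351 in the same order, and 383, 731, 1055 and 249 after 7 days. The exact binomial test, which compares libraries and not conditions, removed 0 of the called genes. At this read depth and filter it could hardly remove a 2-fold call, so it adds no support to the calls. The spread between mice is not in these values, and counting error was widest for Cyp8b1, at 118 reads in its lowest library, for Cyp39a1 and for Hsd3b7.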
